A study of Mus musculus with 22 samples.

Results

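The genes examined here encode the machinery that carries proteins into mitochondria. They were chosen by name: all protein-coding genes whose symbol begins with *Timm* or *Tomm*, together with *Pam16*, *Grpel1*, *Grpel2*, *Pmpca*, *Pmpcb*, *Hspa9*, *Hspd1*, *Hspe1*, *Samm50*, *Mtx1*, *Mtx2*, *Chchd4* and *Gfer*. The rule found 39 of the 55487 genes in the count tables, and it used no measured value. An antisense transcript, *Tomm6os*, was left out because it is not protein-coding. The 39 genes were placed in 11 groups by the known role of their products.

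Nearly all mitochondrial proteins are made in the cytosol and must be imported. The TOM complex in the outer membrane is the common entry gate, with Tomm20, Tomm22 and Tomm70a as receptors and Tomm40 as the channel. Small TIM chaperones escort hydrophobic proteins through the intermembrane space, the TIM22 complex inserts carrier proteins into the inner membrane, and the TIM23 complex passes proteins with a presequence to a matrix motor that is powered by the chaperone mortalin (Hspa9). The matrix processing peptidase then removes the presequence, and the Hsp60 and Hsp10 chaperonin (Hspd1 and Hspe1) folds the product. Brown adipose tissue (BAT), the heat-producing fat of mammals, is packed with mitochondria, and its uncoupling protein UCP1 is an inner membrane carrier that is itself imported from the cytosol.

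BAT RNA of 22 mice was sequenced, with 1 library per mouse in 6 groups. CPEB2 is a protein that binds mRNA and regulates its translation, and PRDM16 is a transcriptional regulator of brown fat identity. The untreated cohort compared 5 WT with 5 CPEB2-KO mice, collected at 21 to 25 weeks of age. In the AAV cohort, WT and KO mice were injected at 16 weeks of age in the interscapular BAT with an adeno-associated virus that carried either GFP or flag-tagged PRDM16, and BAT was taken 9 weeks later, at 25 weeks of age, from 3 mice for each pairing of genotype and virus. These groups are written WT + AAV-GFP and KO + AAV-GFP for the control virus, and with AAV-PRDM16 in its place for the other. All mice were labelled male. The knockout was global, so that every cell type of the tissue lacked CPEB2, and the share of cells that took up virus is not given in the labels.

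Libraries held 55320927 to 162721202 counts in the untreated and 61636889 to 143005309 in the AAV cohort, of which genes of the mitochondrial genome took 24.6% to 38.9% and 29.6% to 36.9%. Values below are CPM (counts scaled to the size of the library) after TMM scaling, computed within each cohort. *Cpeb2* ranged from 4.33 to 5.55 CPM in the 6 KO and from 10.5 to 14.0 CPM in the 6 WT libraries of the AAV cohort, and *Prdm16* from 45.9 to 128 CPM with AAV-PRDM16 against 23.9 to 40.2 CPM with AAV-GFP. In the untreated cohort, the library labelled KO 1 held 11.7 CPM of *Cpeb2*, within the WT range of 7.69 to 14.3 CPM, and the other KO libraries 2.10 to 5.78 CPM. Transcripts of 4 Y-linked genes (*Uty*, *Kdm5d*, *Eif2s3y*, *Ddx3y*) summed to at most 1.17 CPM in untreated WT 3 and 5 and KO 1, 3, 4 and 5, against the label of male mice, and to at least 77.1 CPM in the other 16 libraries. Skeletal muscle markers summed to between 17.5 and 7990 CPM in untreated libraries and to at most 120 CPM in the AAV cohort. All 12 brown adipocyte markers and all 7 adipocyte markers were detected in each library. Untreated results are therefore also given without KO 1, and separately within the 6 libraries that lacked Y-linked transcripts and the 4 that held them (WT 1, 2 and 4 and KO 2).

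The promoters of these genes were searched for short motifs of factors known to control nuclear genes for mitochondrial proteins. RefSeq windows of 300 bases ran from 250 bases before to 50 after the annotated start (GRCm38.p6). They were searched for 34 of the 39 genes, which had 37 windows. *Hspa9*, *Grpel2* and *Timm21* were left out of the search because of their place in the genome, not for their letters. The windows of all genes, used for comparison below, were not restricted in this way, so that the shares compare a restricted with an unrestricted set. The core letters bound by GABPA, an ETS factor also known as NRF2, were written as CCGGAAG on either strand and were found in 18 of the 37 windows (48.6%), which belonged to 17 genes. Among the windows of all protein-coding genes the share was 11.6%, and among all windows it was 8.86%. Some windows overlap, such as those of *Hspd1* and *Hspe1*, which lie head to head, so that the same letters can be counted more than once. For NRF1, written as GCGCANGCG, the share was 16.2% against 8.58% of protein-coding windows. The ERR element AAGGTCA stood in 13.5% against 4.08%, the E-box CACGTG in 16.2% against 7.84%, the YY1 core AAGATGGC in 5.41% against 3.05%, and CCAAT in 27.0% against 38.2%. A match is a run of letters and was not tested as a binding site.

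The bases just before the start are shown for 4 genes that were among the lower ones in KO BAT of the AAV cohort and whose windows hold GABPA or NRF1 letters. Capitals mark GABPA letters in *Mtx2* (chr2:74825612-74825811, plus strand), *Timm8b* (chr9:50603813-50603900, plus strand, which begins after an exon of *Sdhd*) and *Tomm22* (chr15:79670668-79670867, plus strand), and NRF1 letters in *Timm13* (chr10:80900970-80901169, minus strand). All are from RefSeq promoters on GRCm38.p6, written 5′ to 3′ on the strand of the gene.
Mtx2: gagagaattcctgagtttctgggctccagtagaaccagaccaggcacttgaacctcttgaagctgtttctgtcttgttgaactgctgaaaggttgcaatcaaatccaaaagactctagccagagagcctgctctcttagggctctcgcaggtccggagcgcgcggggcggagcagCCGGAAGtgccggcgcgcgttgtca
Timm8b: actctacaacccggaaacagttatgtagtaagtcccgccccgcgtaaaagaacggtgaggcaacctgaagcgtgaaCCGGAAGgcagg
Tomm22: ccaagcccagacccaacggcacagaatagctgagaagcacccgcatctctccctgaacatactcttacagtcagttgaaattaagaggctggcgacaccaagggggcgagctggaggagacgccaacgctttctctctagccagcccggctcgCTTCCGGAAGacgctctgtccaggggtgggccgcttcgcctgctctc
Timm13: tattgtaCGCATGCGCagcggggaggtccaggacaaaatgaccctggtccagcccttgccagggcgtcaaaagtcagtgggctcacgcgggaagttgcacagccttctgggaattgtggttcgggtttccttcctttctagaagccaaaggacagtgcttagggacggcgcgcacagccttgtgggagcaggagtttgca
In *Tomm22* the GABPA letters on both strands overlap, at positions -47 to -38 from the start. In *Timm8b* they end at position -6, and in *Timm13* the NRF1 letters end at position -185. After the start, in bases not shown, *Timm8b* also holds NRF1 letters, at positions 20 to 28. *Mtx2* and *Tomm22* hold further GABPA letters there, at positions 7 to 13 and 6 to 12. Of the tested genes whose windows were searched, 16 had GABPA letters and 16 did not. Their median log2 fold changes between genotypes were -0.21 and -0.26 in the AAV cohort, averaged over both viruses.

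Per kilobase of exon, chaperones of the matrix were the most abundant, while other matrix motor genes stood lower, such as *Timm44* with 25.1 and *Pam16* with 8.08 CPM per kb. *Hspa9* averaged 246 CPM per kb over the 22 libraries and *Hspd1* 219 CPM per kb, and they ranked first and second in each of the 6 groups. *Hspe1*, the co-chaperonin of *Hspd1*, followed at 62.5 and *Timm23*, the channel of the presequence translocase, at 61.2 CPM per kb. These last 2 did not keep their order in all groups. By the mean of the 22 libraries, which pools cohorts scaled separately, the most abundant member of each other group was as follows. The small TIM *Timm8b* had 42.6 CPM per kb (in untreated KO, *Timm13* stood higher, at 62.3 against 59.6). The peptidase subunit *Pmpcb* had 38.1, the small TOM subunit *Tomm5* 37.2 and the outer membrane assembly channel *Samm50* 33.3. *Timmdc1*, an assembly factor of respiratory complex I that carries a TIM name, had 17.3 and the carrier translocase subunit *Timm29* 11.9. The sulfhydryl oxidase *Gfer* had 5.79 and the cytosolic co-chaperone *Tomm34* 4.31. The lowest of the tested genes was the nucleotide exchange factor *Grpel2* with 2.21 CPM per kb, far below its relative *Grpel1* with 29.5. *Tomm20l* was at 0 in all 22 libraries and *Timm8a2* at no more than 0.0668 CPM in any of them, and both were left out of the tests by the filter on low counts. The other 37 genes were tested in both cohorts, at 470 counts or more in every AAV library and 559 or more in every untreated one.

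**Figure D1:**
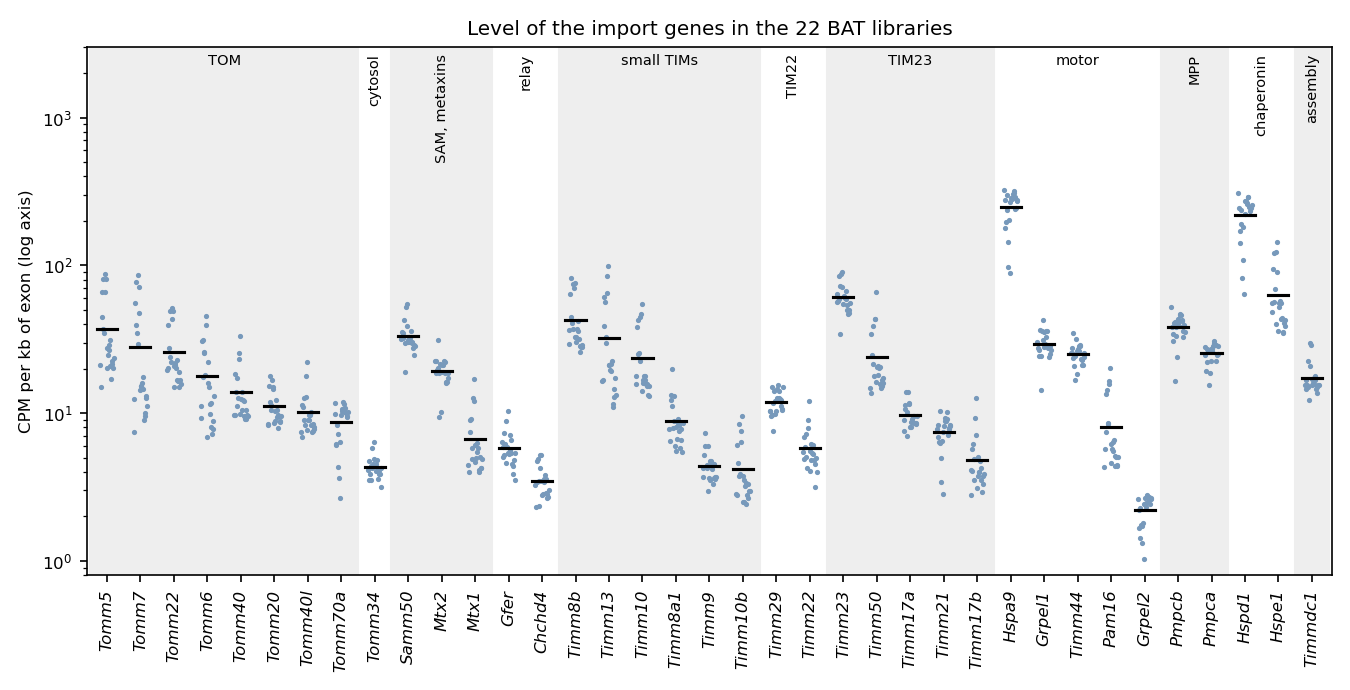
Level of the 37 tested import genes in CPM per kilobase of exon (log axis), by role along the horizontal axis. Each point is 1 of the 22 libraries and the bar is their mean. *Hspa9* and *Hspd1* stand highest, with means of 246 and 219, and *Grpel2* lowest with 2.21.

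Spread between mice differed between the cohorts. The coefficient of variation of a gene within a group had a median of 33.5% in the untreated and of 7.46% in the AAV cohort. The extremes were *Tomm7* in untreated WT with 76.4% and *Timm44* in WT + AAV-PRDM16 with 0.904%. *Tomm6* was the most variable in the AAV cohort, with 51.1% in WT + AAV-GFP, and 76% of its exon bases also belong to *Gm21981* on the same strand, so that its counts are uncertain. The AAV cohort is given first because its groups varied less and *Cpeb2* was lower in each library labelled KO.

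In virus-treated BAT, transcripts of 2 small import proteins fell in KO mice. Averaged over both viruses, *Timm13* was 36.2% lower in KO (log2 fold change -0.65, SE 0.0805, adjusted p = 0.0059 by edgeR's quasi-likelihood test) and *Tomm7* 30.4% lower (log2 fold change -0.52, SE 0.0743, adjusted p = 0.00838). Timm13 is a small TIM that carries hydrophobic precursors across the intermembrane space, and Tomm7 is a small TOM subunit that modulates the stability of the gate. On GRCm38 (GENCODE M21), *Timm13* lies at chr10:80899450-80900969 on the minus strand and *Tomm7* at chr5:23838944-23844161 on the minus strand. They were the 2 members called at a false discovery rate (FDR) of 0.05, where 2.18% of all genes tested were called. Such shares of all genes are given below as the background. A further 17 members had an unadjusted p under 0.05, which makes 19 of 37 lower and none higher, where 8.76% of all genes were lower at that threshold. In all, 35 of the 37 log2 fold changes were below zero against 48.4% of all genes, and the median was -0.21 against 0.01. The exceptions were *Timm17a* (0.03) and *Grpel2* (0.01). DESeq2 and limma-voom each called 15 members at the same FDR, the same 15 genes, where they called 9.93% and 6.71% of all genes.

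With the control virus, *Timm13* was the only member called, at 42.7% lower in KO (log2 fold change -0.80, SE 0.114, adjusted p = 0.0326), where 0.0529% of all genes were called. It stood at 28.8, 28.8 and 26.7 CPM in WT + AAV-GFP and at 15.0, 15.7 and 17.5 CPM in KO + AAV-GFP. The groups were far apart and did not overlap. The call was kept without KO + AAV-PRDM16 2 or 3 and was lost without any one of the other 10 libraries of the cohort (adjusted p from 0.0599 to 0.244), with log2 fold changes from -0.88 to -0.76. It was also lost after removal of a GC and length trend (adjusted p = 0.0555), with a replicate block (adjusted p = 0.0937) and in an edgeR fit of these 2 groups alone (adjusted p = 0.406). *Tomm7* stood at 16.2, 17.1 and 17.1 CPM in WT + AAV-GFP and at 10.1, 10.7 and 11.2 CPM in KO + AAV-GFP (log2 fold change -0.66, SE 0.105, adjusted p = 0.0686). Its groups did not overlap either, and the difference missed the FDR. Altogether 6 members were lower at an unadjusted p under 0.05 (background 4.2%) and 7 were lower without overlap between groups (background 6.88%). None was higher in either sense, and the median log2 fold change was -0.13 against 0.01 over all genes. Single libraries moved these values. Without WT + AAV-GFP 1, 15 members were lower at an unadjusted p under 0.05 (4.17% of all genes) and the median was -0.21. Without WT + AAV-GFP 2 it was 3 members (3.62%) and a median of -0.08. Without WT + AAV-GFP 3 or KO + AAV-GFP 2 it was 3 members (2.84% and 3.47%). With 3 mice against 3, an exact permutation test cannot give a p below 0.1.

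With the PRDM16 virus, the log2 fold changes between genotypes lay below zero through the whole pathway. All 37 members tested were lower in the KO than in the WT mice given PRDM16, against 48.5% of all genes, with a median log2 fold change of -0.30 against 0.01. The range was from -0.49 for *Timm13* to -0.04 for *Timm17a*. In 29 members each KO value lay under each WT value (background 11.2%), and 20 had an unadjusted p under 0.05 (background 6.80%). No member was called by edgeR at an FDR of 0.05 (background 0.0476%), and the smallest adjusted p was 0.12, for *Timm8b* and *Timm13*. DESeq2 called 7 members and limma-voom 12, of which 6 were the same, *Grpel1*, *Mtx2*, *Timm13*, *Timm8b*, *Tomm22* and *Tomm40*, where they called 4.02% and 2.88% of all genes.

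Sums of cell type markers were set beside these differences. The 7 general adipocyte markers summed to 10100 to 11800 CPM in WT + AAV-PRDM16 and to 8890 to 10000 CPM in KO + AAV-PRDM16, without overlap. With GFP these sums overlapped, at 8540 to 10800 CPM in WT and 8750 to 9750 CPM in KO. Brown adipocyte markers summed to 5010 to 6640 CPM in WT + AAV-PRDM16 and to 3570 to 4520 CPM in KO + AAV-PRDM16, without overlap, and to 3330 to 5520 CPM in WT + AAV-GFP and 3630 to 4160 CPM in KO + AAV-GFP. The 8 macrophage markers, none of which was at 0 in any library, summed to 43.0 to 54.1 CPM in WT + AAV-PRDM16 against 81.9 to 99.9 CPM in KO + AAV-PRDM16, and to 59.9 to 130 CPM in WT + AAV-GFP against 152 to 375 CPM in KO + AAV-GFP. The 6 endothelial markers summed to 370 to 412 CPM in WT + AAV-PRDM16 and to 415 to 533 CPM in KO + AAV-PRDM16. With GFP they overlapped, at 363 to 478 CPM in WT and 354 to 569 CPM in KO. Over both viruses, 3 of 12 brown adipocyte markers were called lower in KO and 4 of 8 macrophage markers higher, where 2.18% of all genes were called. The 12 include *Prdm16*, which AAV-PRDM16 itself carries and which was not called between genotypes (log2 fold change -0.06). In bulk tissue, fewer brown adipocytes and less RNA per brown adipocyte cannot be told apart, and the part of these markers in the differences was not tested.

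**Figure D2:**
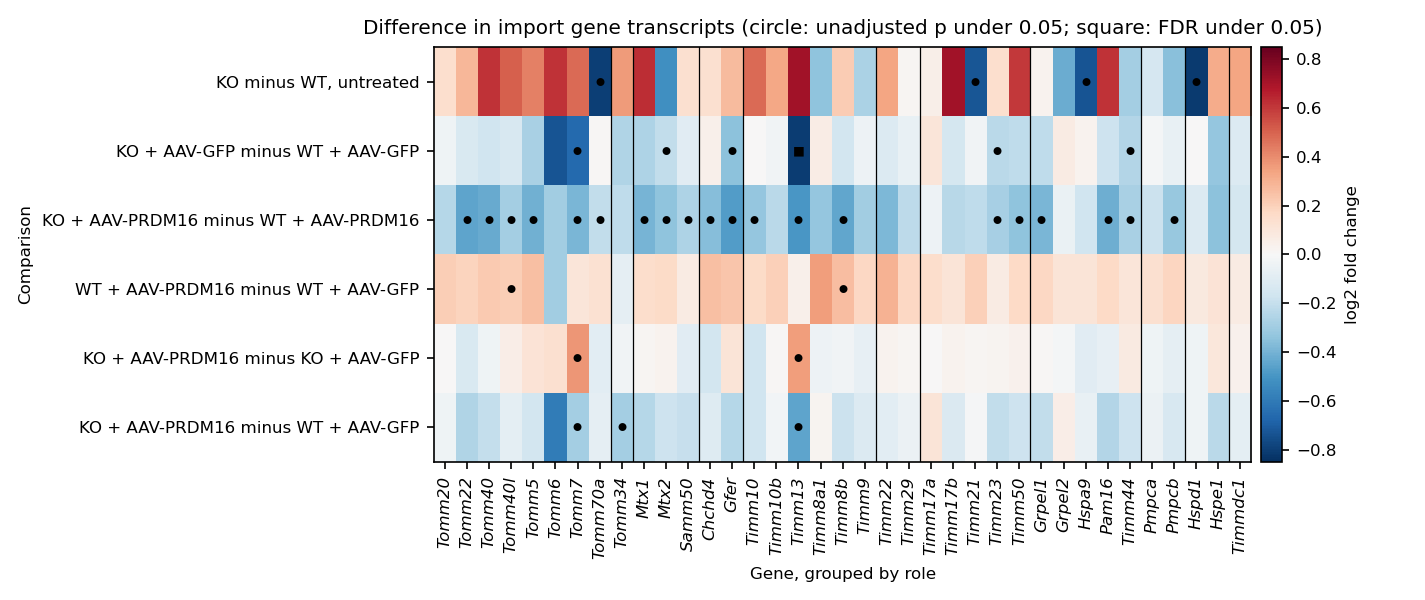
Log2 fold change (colour) of the 37 tested import genes, grouped by role along the horizontal axis, in 6 comparisons on the vertical axis. Circles mark an unadjusted p under 0.05 and the square an FDR under 0.05. The row of KO + AAV-PRDM16 against WT + AAV-PRDM16 is blue throughout, with 20 circles, and the untreated row holds both colours. Rows share control groups and are not independent.

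In the outer membrane gate, the 8 tested TOM genes had a median log2 fold change of -0.34 between genotypes with the PRDM16 virus, and 6 of them had an unadjusted p under 0.05. They ran from -0.45 for *Tomm22* to -0.21. *Tomm7* stood at 18.1, 16.3 and 19.7 CPM in WT + AAV-PRDM16 and at 14.6, 14.2 and 12.5 CPM in KO + AAV-PRDM16 (log2 fold change -0.39, SE 0.105, adjusted p = 0.154). *Tomm40*, the channel itself, had a log2 fold change of -0.43 and *Tomm22*, its central receptor, of -0.45, and both were without overlap between groups.

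*Tomm5*, another small TOM subunit, held 17.4, 24 and 21.6 CPM in WT + AAV-GFP, 25.1, 23.2 and 26.9 in WT + AAV-PRDM16, 18.1, 14.7 and 19.4 in KO + AAV-GFP and 18.6, 17.4 and 20.5 in KO + AAV-PRDM16. Its 6 KO values and the first WT + AAV-GFP value overlapped, while WT + AAV-PRDM16 lay above both KO groups. *Tomm40l*, a channel protein like Tomm40, held 39.4, 45.9 and 46.4 CPM in WT + AAV-GFP, 50.1, 49.7 and 52.4 in WT + AAV-PRDM16, 42.8, 38.4 and 38.6 in KO + AAV-GFP and 43.6, 40.0 and 41.2 in KO + AAV-PRDM16. WT + AAV-PRDM16 was the highest group for it too, but 64.3% of its exon bases overlap *Nr1i3* on the opposite strand and the strand handling of the counting is unknown. The receptor *Tomm70a*, which takes in carrier proteins and the chaperones that hold them, overlapped between groups other than the 2 given PRDM16. It held 95.5, 104 and 101 CPM in WT + AAV-GFP, 116, 101 and 112 in WT + AAV-PRDM16, 105, 100 and 98.1 in KO + AAV-GFP and 92.2, 92.9 and 100 in KO + AAV-PRDM16.

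The cytosolic co-chaperone *Tomm34* was one of the 2 members not higher in WT + AAV-PRDM16 than in WT + AAV-GFP. It held 14.8, 13.5 and 13.8 CPM in WT + AAV-GFP, 12.3, 14.6 and 13.0 in WT + AAV-PRDM16, 10.9, 12.5 and 11.8 in KO + AAV-GFP and 11.7, 13.0 and 9.62 in KO + AAV-PRDM16. Both KO groups lay below WT + AAV-GFP.

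Among the proteins that build barrels into the outer membrane, all 3 had an unadjusted p under 0.05 between genotypes with the PRDM16 virus. *Samm50* held 198 to 213 CPM in the 3 WT + AAV-GFP libraries, 199, 212 and 234 in WT + AAV-PRDM16, 195, 199 and 182 in KO + AAV-GFP and 163, 190 and 185 in KO + AAV-PRDM16. Its 2 PRDM16 groups did not overlap and its 2 GFP groups did. *Mtx1* and *Mtx2*, the metaxins that sit beside Samm50, had log2 fold changes of -0.40 and -0.34 there, but 21.2% of the exon bases of *Mtx1* overlap *Gm43737* on the opposite strand, so that its counts are uncertain.

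The disulfide relay traps small cysteine-rich proteins, the small TIMs included, in the intermembrane space. Its import receptor *Chchd4* held 14.4, 17.9 and 14.6 CPM in WT + AAV-GFP, 18.6, 17.6 and 19.7 in WT + AAV-PRDM16, 18.6, 15.0 and 14.8 in KO + AAV-GFP and 13.8, 14.0 and 15.7 in KO + AAV-PRDM16. The genotypes overlapped with GFP and were apart with PRDM16, and the test of this difference, the interaction of genotype and virus, gave a log2 value of -0.41 with an adjusted p = 1. *Gfer*, which reoxidises Chchd4, held 11.9, 11.7 and 12.6 CPM in WT + AAV-GFP, 15.9, 12.0 and 14.6 in WT + AAV-PRDM16, 10.1, 9.74 and 8.63 in KO + AAV-GFP and 10.8, 12.0 and 7.85 in KO + AAV-PRDM16. Each KO value was at or below each WT value with the same virus.

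The 6 tested small TIMs had a median log2 fold change of -0.33 between genotypes with the PRDM16 virus, in a range from -0.49 to -0.23, and 3 had an unadjusted p under 0.05. *Timm13* stood at 26.3, 29.6 and 30.8 CPM in WT + AAV-PRDM16 and at 19.8, 23.6 and 18.2 CPM in KO + AAV-PRDM16 (log2 fold change -0.49, SE 0.114, adjusted p = 0.12), so that all 6 KO libraries of the cohort were below all 6 WT libraries. *Timm8b* encodes a close relative of Timm8a, the partner of Timm13. It held 17.0, 15.7 and 17.0 CPM in WT + AAV-GFP and 16.5, 13.5 and 14.8 in KO + AAV-GFP, which overlapped. With AAV-PRDM16 it held 19.2, 18.7 and 21.6 CPM in WT and 14.5, 14.4 and 14.9 in KO (log2 fold change -0.44, SE 0.102, adjusted p = 0.12), which did not. Its interaction, the test of that contrast, was -0.29 with an adjusted p = 1.

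*Timm10*, the partner of Timm9 in the main small TIM hexamer, held 11.5, 13.0 and 13.6 CPM in WT + AAV-GFP, 14.4, 13.6 and 14.5 in WT + AAV-PRDM16, 12.8, 12.9 and 12.5 in KO + AAV-GFP and 10.8, 10.6 and 12.5 in KO + AAV-PRDM16. KO + AAV-PRDM16 had its lowest mean. Its interaction was -0.33 with an adjusted p = 1.

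**Figure D3:**
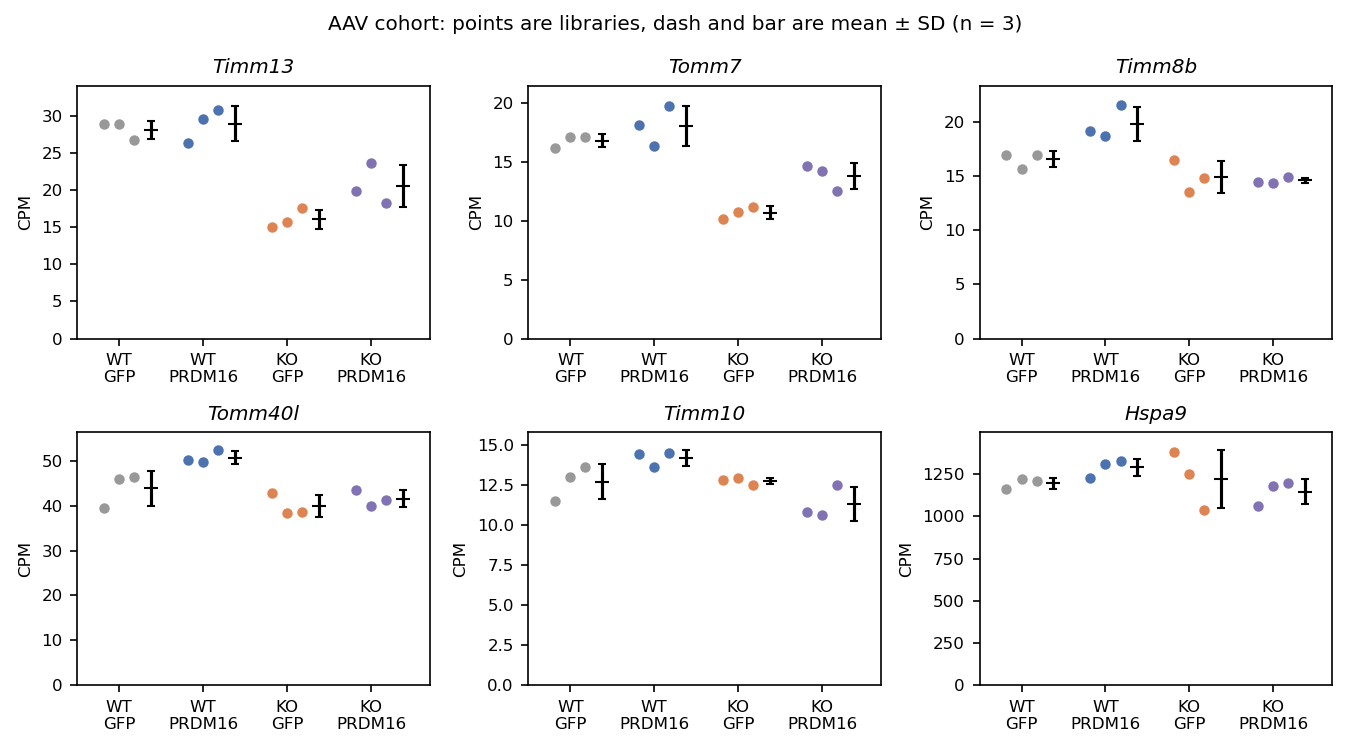
CPM of 6 import genes in the 4 groups of the AAV cohort, each vertical axis from 0. Points are libraries and the dash with its bar is the mean ± SD (n = 3). *Timm13* and *Tomm7* are lower in both KO groups, *Timm8b*, *Tomm40l* and *Timm10* are highest in WT + AAV-PRDM16, and *Hspa9* overlaps between most groups.

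In the inner membrane, both carrier translocase genes lay between -0.38 and -0.22 in that comparison, with neither at an unadjusted p under 0.05. *Timm29* of the carrier translocase held 32.6, 45.9 and 40.0 CPM in WT + AAV-GFP, 48.9, 40.1 and 45.0 in WT + AAV-PRDM16, 39.5, 35.4 and 38.6 in KO + AAV-GFP and 33.6, 33.4 and 47.7 in KO + AAV-PRDM16, with overlap between all groups except WT + AAV-PRDM16 and KO + AAV-GFP. *Timm23*, the presequence channel, held 97.3, 109 and 110 CPM in WT + AAV-GFP, 108, 105 and 120 in WT + AAV-PRDM16, 96.5, 89.4 and 83.9 in KO + AAV-GFP and 88.7, 85.3 and 99.9 in KO + AAV-PRDM16. With each virus, its KO libraries lay below its WT libraries. *Timm21*, which couples this translocase to the respiratory chain, held 27.7, 30.4 and 33.0 CPM in WT + AAV-GFP, 34.5, 32.7 and 37.6 in WT + AAV-PRDM16, 33.7, 26.4 and 29.5 in KO + AAV-GFP and 29.0, 30.9 and 30.5 in KO + AAV-PRDM16. Of the 5 translocase genes of this group, *Timm23* and *Timm50* had an unadjusted p under 0.05 between genotypes with the PRDM16 virus.

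At the matrix motor, the abundant *Hspa9* held 1160, 1220 and 1210 CPM in WT + AAV-GFP, 1230, 1310 and 1330 in WT + AAV-PRDM16, 1380, 1250 and 1040 in KO + AAV-GFP and 1060, 1180 and 1200 in KO + AAV-PRDM16. Its log2 fold change was 0.03 with GFP and -0.17 with PRDM16. Its partners went further below zero with PRDM16, with *Pam16*, which regulates the motor's J protein, at -0.41, *Grpel1*, its nucleotide exchange factor, at -0.39 and *Timm44*, its anchor at the translocase, at -0.28. *Grpel2* was at -0.06.

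In the matrix, both peptidase genes lay between -0.32 and -0.18 between genotypes with PRDM16, and 1 of them had an unadjusted p under 0.05. *Pmpcb* held 221, 208 and 199 CPM in WT + AAV-GFP, 242, 236 and 235 in WT + AAV-PRDM16, 215, 218 and 167 in KO + AAV-GFP and 186, 203 and 181 in KO + AAV-PRDM16. WT + AAV-PRDM16 lay above all the other groups. *Hspd1* held 586, 720 and 721 CPM in WT + AAV-GFP, 692, 689 and 765 in WT + AAV-PRDM16, 767, 651 and 613 in KO + AAV-GFP and 660, 643 and 675 in KO + AAV-PRDM16, with log2 fold changes between genotypes of 0.00 and -0.12. *Hspe1* had -0.33 and -0.35. The complex I assembly factor *Timmdc1* held 27.7, 30.3 and 28.4 CPM in WT + AAV-GFP, 30.8, 28.0 and 31.9 in WT + AAV-PRDM16, 29.9, 25.8 and 24.2 in KO + AAV-GFP and 26.7, 27.5 and 27.6 in KO + AAV-PRDM16. It had no unadjusted p under 0.05 in any comparison.

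The PRDM16 virus was compared with the GFP virus within each genotype. In WT BAT, 35 of 37 members were higher with AAV-PRDM16 than with AAV-GFP, with a median log2 fold change of 0.16 against -0.01 over all genes. WT + AAV-PRDM16 3 held 45.9 CPM of *Prdm16*, against 122 and 119 CPM in WT + AAV-PRDM16 1 and 2. Its members had a median deviation from the cohort mean of 0.24 (log2), against 0.22 and 0.12 in those libraries. Whether the members follow the level of *Prdm16* was not tested. *Timm8b* (0.26, SE 0.101, adjusted p = 0.582) and *Tomm40l* (0.21, SE 0.0905, adjusted p = 0.658) had an unadjusted p under 0.05 (background 2.10%), 10 members were higher without overlap (background 6.39%), and none was called by edgeR (background 0%), DESeq2 (0.779% of all genes) or limma-voom (0.00529%). The count at an unadjusted p under 0.05 depended on single libraries and on a correction for GC content and length. It was 0 to 10 without single libraries, with 0 without WT + AAV-PRDM16 3 (1.89% of all genes). It was 1 without WT + AAV-GFP 1 (1.30%), with a median of 0.10, and 10 without WT + AAV-GFP 2 (3.45%), with a median of 0.21. It was 19 with a median of 0.28 after removal of a GC and length trend, where 7.34% of all genes were higher and their median was 0.11. The members below zero were *Tomm6* and *Tomm34*. In KO BAT, 21 of 37 were above zero and the median was 0.01. *Tomm7* (0.37, SE 0.105, adjusted p = 0.349) and *Timm13* (0.35, SE 0.114, adjusted p = 0.438) were those with an unadjusted p under 0.05 (background 1.31%) and those without overlap (background 3.38%), and again none was called by edgeR (background 0%) or by the other tests. Over both genotypes the virus gave a median of 0.08, the same 2 genes at an unadjusted p under 0.05 (background 2.07%) and no call by edgeR (background 0.0370%) or by the other tests. After removal of a GC and length trend, 17 members (11.2% of all genes) were higher at an unadjusted p under 0.05, with a median of 0.19. Immune cell markers had larger log2 fold changes than the members in these comparisons. All 8 T cell markers had log2 fold changes below zero in both genotypes, with medians of -3.15 in WT and -3.33 in KO, and 7 and 8 of them had an unadjusted p under 0.05, where 5.19% and 5.1% of all genes were lower. They summed to 1.67 to 22 CPM in WT + AAV-GFP against 1.19 to 1.71 CPM in WT + AAV-PRDM16, which overlap, and to 8.13 to 30.5 CPM in KO + AAV-GFP against 0.714 to 2.26 CPM in KO + AAV-PRDM16, with up to 3 of 8 at 0 in a library given PRDM16. Of the 8 macrophage markers, 7 were lower at an unadjusted p under 0.05 in each genotype, with medians of -0.91 and -1.28. No T cell or macrophage marker was called, and their part in the members' values was not tested.

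The test of whether the virus acted differently in the 2 genotypes called no member with edgeR (background 0%), DESeq2 or limma-voom. *Chchd4* and *Timm10* had an unadjusted p under 0.05 below zero (background 1.60%), 33 of 37 values were below zero and the median was -0.16 against 0.00 over all genes. Without single libraries, 0 to 4 members were below zero at that threshold, where 1.30% to 2.73% of all genes were. The 4 were seen without WT + AAV-GFP 2 (2.73%) and without KO + AAV-GFP 3 (2.32%).

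KO mice given PRDM16 were also set against WT mice given GFP, the comparison of the treated mutant with the control. No member was called by edgeR (background 0.00529%) or limma-voom (0.00529%), and DESeq2 called *Timm13*, where it called 0.848% of all genes. *Timm13* (-0.45, SE 0.114, adjusted p = 0.39), *Tomm7* (-0.29, SE 0.105, adjusted p = 0.549) and *Tomm34* (-0.29, SE 0.125, adjusted p = 0.601) were lower at an unadjusted p under 0.05 (background 4.42%), and 9 members were lower without overlap (background 7.09%). The 3 became 11 without WT + AAV-GFP 1 (5.29% of all genes) and 2 to 5 without any other single library (2.84% to 5.33%). They became 15 by limma-voom (6.53%) and 1 after removal of a GC and length trend (2.85%). *Timm13* averaged 28.1 ± 1.22 CPM in WT + AAV-GFP, 16.1 ± 1.32 in KO + AAV-GFP and 20.5 ± 2.75 in KO + AAV-PRDM16 (SD, n = 3 each). *Tomm7* averaged 16.8 ± 0.539, 10.6 ± 0.567 and 13.8 ± 1.15 CPM in the same groups. For both, the treated KO group lay between the other two without overlap on either side. The comparisons of the AAV cohort share groups, so that their values are not independent.

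Genes that work beside this machinery were taken from 2 further lists. Of 23 other import factors, 1 was called lower in KO over both viruses (2.18% of all genes were called) and 6 had an unadjusted p under 0.05 below zero (8.76% of all genes), with a median log2 fold change of -0.14. The called gene was *Romo1*, a small inner membrane protein of the TIM23 translocase, with -0.63 (SE 0.0772, adjusted p = 0.0059), and with GFP alone it had -0.74 (adjusted p = 0.0354). Of 11 inner membrane and matrix proteases and prohibitins, 2 were called lower against the same 2.18%, the prohibitins *Phb* (-0.29, SE 0.0613, adjusted p = 0.0342) and *Phb2* (-0.34, SE 0.0640, adjusted p = 0.0253), which form ring scaffolds in the inner membrane. None of the 34 genes was called higher in any comparison.

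Transcript length was set beside these values. Over the 37 members, the log2 fold change between genotypes in the AAV cohort, averaged over both viruses, was greater with greater length of the longest annotated transcript (Pearson's r = 0.58, Spearman's rho = 0.58), where rho over 14473 protein-coding genes was 0.21. These are correlations across genes of the same 12 libraries, and genes are not independent replicates. The 4 members under 1000 bases had a median of -0.32 and the 7 of 4000 bases and over a median of -0.14, against -0.16 and 0.07 for protein-coding genes of the same classes, so that members were lower than other genes of their length in both classes. In the untreated cohort the relation ran the other way (r = -0.44 and rho = -0.48 over members, rho = -0.35 over 14309 protein-coding genes), and GC content had a rho of 0.66 over members and 0.61 over protein-coding genes. After removal of a GC and length trend from each library, 37 of 37 members were below zero over both viruses, with a median of -0.27 against -0.06 over all genes. Library quality was not tested as a cause of these trends.

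**Figure D4:**
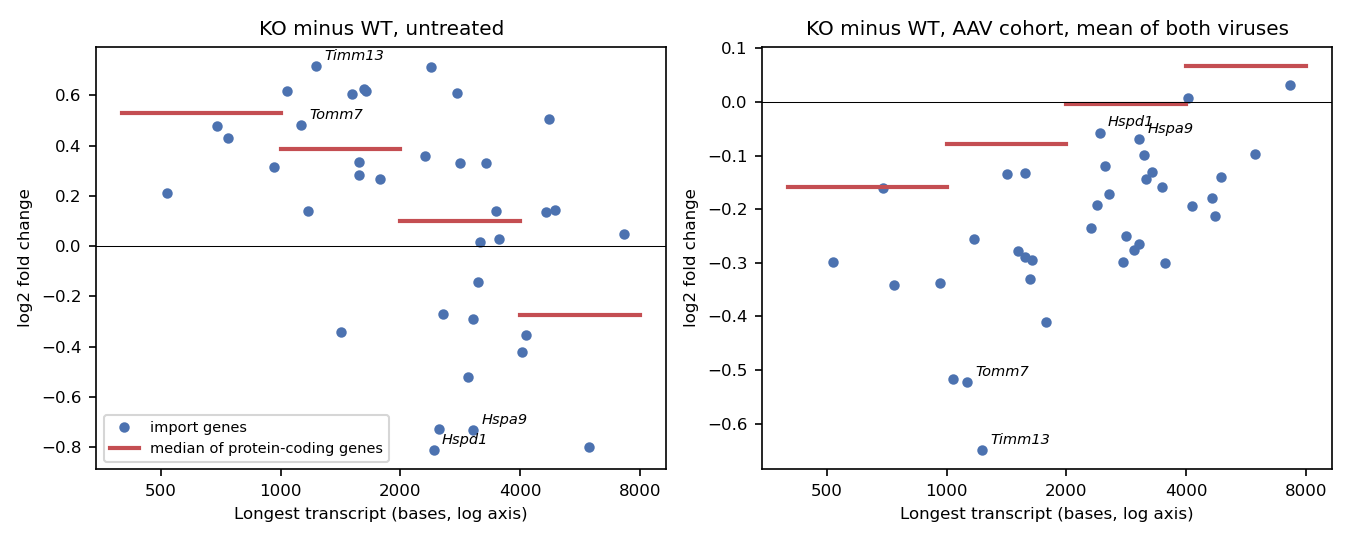
Log2 fold change between genotypes against the longest annotated transcript (bases, log axis) for the 37 tested import genes, for untreated mice and, averaged over both viruses, for the AAV cohort. Red lines are medians of all protein-coding genes in 4 length classes. Short transcripts lie above zero on the left and below zero on the right.

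In untreated BAT, no member was called between genotypes by edgeR (background 0%), DESeq2 or limma-voom, and none met the looser threshold of a 2-fold or larger difference at an FDR up to 0.5, which 10.8% of all genes met. The log2 fold changes ran from -0.81 for *Hspd1* to 0.72 for *Timm13*, 26 of 37 were above zero and the median was 0.21 against 0.04 over all genes. The groups overlapped for each of the 37. The median was 0.04 without WT 1 and 2, which were the lowest for several short transcripts, -0.01 in the 6 libraries that lacked Y-linked transcripts, -0.21 in the 4 that held them, where KO 2 is the single KO mouse and was assumed to vary like the WT mice, 0.32 without the library labelled KO 1 and 0.38 without KO 2. No member was called in any of these.

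The 4 members with an unadjusted p under 0.05 were lower in KO (background 10.9%), but this count was unstable. It was 1 without WT 1 (4.51% of all genes), WT 5 (9.18%) or KO 3 (6.51%). It was 2 without WT 2 (4.91%), KO 2 (11.2%) or KO 5 (6.06%). After removal of a GC and length trend it was 1 (5.27%), and in the 6 libraries that lacked Y-linked transcripts it was 0 (0.862%). For the libraries that held them no count is given, since KO 2 is the single KO mouse there. Their log2 fold changes for these 4 members, given below, lay further below zero. At that threshold 4 members were higher without KO 2 (7.25% of all genes), and 10 were with replicate numbers as a block (6.83%), although these numbers do not mark pairs. *Tomm70a* stood at 114, 96.5, 59, 60.4 and 81.2 CPM in WT 1 to 5 and at 70.7, 41.9, 35.7, 62.3 and 26.0 CPM in KO 1 to 5 (log2 fold change -0.80, SE 0.309, adjusted p = 0.305, exact permutation p = 0.0476). *Timm21* stood at 29.0, 31.1, 25.8, 23.6 and 38.4 CPM in WT and at 23.5, 12.7, 18.6, 24 and 10.6 CPM in KO (log2 fold change -0.73, SE 0.268, adjusted p = 0.305, exact permutation p = 0.0159). In both genes the lowest 3 values were KO libraries and the highest 3 WT libraries.

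*Hspa9* stood at 1400, 1200, 766, 844 and 1290 CPM in WT and at 1020, 419, 618, 871 and 381 CPM in KO (log2 fold change -0.73, SE 0.329, adjusted p = 0.311, exact permutation p = 0.0476). *Hspd1* stood at 815, 641, 375, 454 and 622 CPM in WT and at 504, 215, 287, 483 and 170 CPM in KO (log2 fold change -0.81, SE 0.351, adjusted p = 0.308, exact permutation p = 0.0635). The lowest 3 values of each were KO 2, 3 and 5. In the 6 libraries that lacked Y-linked transcripts these 4 log2 fold changes were between -0.73 and -0.46, with an adjusted p = 0.864, and in the 4 libraries that held them they were between -1.50 and -1.04, with an adjusted p = 0.631. After removal of a GC and length trend they were between -0.72 and -0.19.

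**Figure D5:**
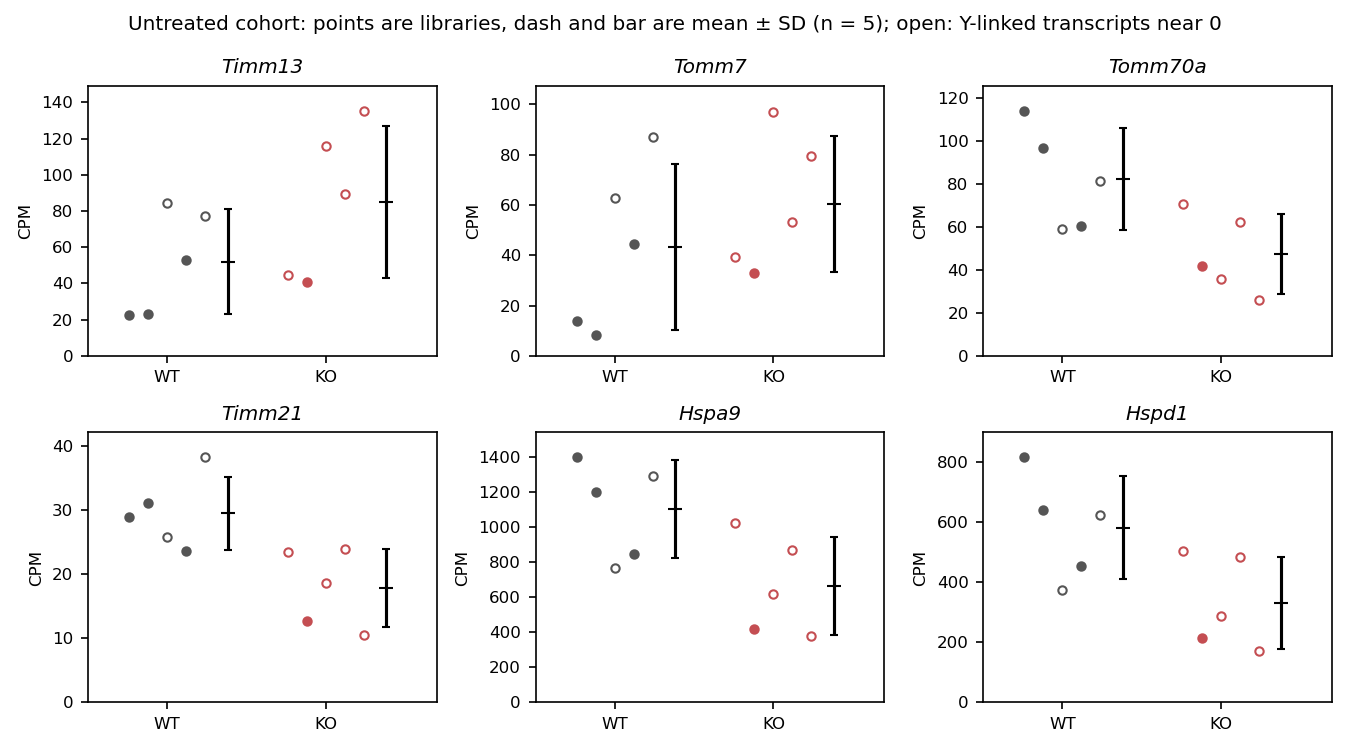
CPM of 6 import genes in the untreated cohort, each vertical axis from 0. Points are libraries in the order of mice 1 to 5, open where Y-linked transcripts were near 0, and the dash with its bar is the mean ± SD (n = 5). Groups overlap in all panels, and WT 1 and 2 are the lowest libraries for *Timm13* and *Tomm7*.

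The genes called in the AAV cohort had log2 fold changes above zero here, not past any threshold. *Timm13* stood at 22.7, 22.9, 84.2, 53.0 and 77.0 CPM in WT and at 44.5, 40.9, 116, 89.6 and 135 CPM in KO (log2 fold change 0.72). *Tomm7* stood at 13.9, 8.35, 62.7, 44.3 and 86.9 CPM in WT and at 39.2, 33.0, 96.8, 53.2 and 79.6 CPM in KO (log2 fold change 0.48). For both, WT 1 and 2 were far below the other 8 libraries, and Timm13 spanned from 22.7 to 84.2 CPM within WT alone.

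A like order of libraries was seen for 3 further genes. *Tomm5* held 18.3, 13.0, 57.2, 39.0 and 70.3 CPM in WT and 32.1, 30.2, 76, 57.6 and 70.2 in KO. *Timm8b* held 19.0, 15.3, 33.2, 23.0 and 42.7 CPM in WT and 21.2, 19.1, 38.8, 36.1 and 39.1 in KO. *Timm10* held 14.5, 12.9, 31.0, 20.4 and 34.5 CPM in WT and 20.7, 18.4, 36.4, 38 and 44.4 in KO. In each, WT 1 and 2 were the lowest and KO 1 and 2 were the lowest of their group.

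Among the remaining genes, *Tomm40l* held 38.3, 35.4, 58.1, 56.3 and 65.2 CPM in WT and 46.3, 42.6, 91.7, 65.9 and 113 in KO. *Samm50* held 208, 232, 229, 211 and 280 CPM in WT and 195, 124, 342, 255 and 358 in KO. *Timm23* held 114, 101, 103, 105 and 152 CPM in WT and 129, 60.9, 157, 127 and 161 in KO. KO 2 was the lowest library for *Samm50* and *Timm23*.

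The disulfide relay genes overlapped between genotypes over most of their range. *Chchd4* held 17.0, 12.0, 24.4, 17.7 and 25.4 CPM in WT and 18.1, 12.1, 27.0, 22 and 27.2 in KO. *Gfer* held 14.1, 11.2, 13.2, 11.6 and 16.3 CPM in WT and 13.8, 10.2, 19.6, 13.2 and 23.2 in KO.

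Of the others, *Tomm34* held 12.5, 14.4, 10.7, 11.7 and 10.7 CPM in WT and 13.4, 12.9, 17.5, 13.8 and 19.3 in KO. *Timm29* held 32.7, 32.5, 30.4, 30.7 and 47.2 CPM in WT and 36.8, 24.1, 44.8, 31.2 and 38.4 in KO. *Pmpcb* held 268, 196, 159, 175 and 210 CPM in WT and 213, 85.3, 195, 172 and 124 in KO. KO 2 was the lowest library for *Timm29* and *Pmpcb* and the lowest KO library for *Tomm34*.

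*Timmdc1* held 27.4, 25.9, 29.7, 27.8 and 40.2 CPM in WT and 26.6, 21.9, 53.1, 37.2 and 51.6 in KO. KO 2 stood apart over the whole pathway, with 36 of 37 members below their mean over the cohort and a median deviation of -0.54 (log2), while WT 5 had 1 of 37 below it and KO 5 a median deviation of 0.53. KO 2 also had the highest sum of skeletal muscle markers, 7990 CPM of 15 genes, none at 0. KO 1 (7160 CPM) and WT 3 (3930 CPM) were next, with median deviations of -0.15 and 0.15. Brown adipocyte markers summed to 4480 to 8500 CPM in untreated WT and to 4050 to 12500 CPM in untreated KO libraries. KO 2 had the lowest of these sums and KO 5 the highest. The part of brown adipocyte or muscle RNA in these levels was not tested for single libraries. With a muscle score as a covariate the median log2 fold change was 0.26 and no member was called.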

How the data were processed

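RNA-seq was done on BAT of 22 mice in 6 groups. The authors deposited raw read counts per gene, 1 table per cohort with 55487 genes and a column per library, on which no normalization had been done. Per the labels and methods, total RNA was extracted with TRIzol and libraries were made with a SureSelect XT HS2 mRNA kit. The submitters' processing notes name bcl2fastq 2.20, Trimmomatic 0.36, HISAT2 and GRCm38.p6. The counting tool, its strand setting and the use of molecular identifiers are not given in the sources used here, so that genes overlapping on either strand may share reads. Symbols came from GENCODE M21 (55227 identifiers matched).

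Each cohort was analysed by itself with edgeR 4.0.16 in R 4.3.3: genes were kept by filterByExpr (17869 untreated, 18899 AAV), scaled by TMM, and tested with the quasi-likelihood test, with Benjamini-Hochberg adjustment over all genes and an FDR of 0.05. All 12 AAV libraries shared 1 fit, with contrasts for single groups, for means over virus or genotype and for their interaction. Exact permutation tests over samples were two-sided and cannot go below 0.1 for 3 against 3 or 0.00794 for 5 against 5. DESeq2 1.42.0 and limma-voom (limma 3.58.1) with quality weights, other scalings and filters, a correction for GC content and length, a replicate block and leaving out each library were tried as alternatives, and the steps were tested on simulated data. Replicate numbers were not treated as pairs: libraries with the same replicate number correlated by -0.292 to 0.111 untreated and -0.091 to 0.154 in the AAV cohort. No 2 libraries of a group agreed within sampling noise. Each library is 1 mouse and held 55320927 counts or more. For single members, counting error was not compared with the spread between mice. That spread could be small, such as a coefficient of variation of 1.55% for *Timm10* in KO + AAV-GFP, at 861 to 1800 counts. The genes named with all their values were taken by a rule: those called at the FDR, the 2 with the smallest p in each comparison, and the most abundant, per length, of each role. Genes and lists were chosen with earlier results of these data known.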

Additional observations from a re-analysis of the deposited data

Results flagged for a closer look

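Among 38 groups of 5 untreated values examined, 3 values stood apart from the other 4 of their group by more of the range than Dixon's 95% critical value, and all were in WT mouse 5. It held 47.2 CPM of *Timm29*, 152 CPM of *Timm23* and 40.2 CPM of *Timmdc1*, each the highest WT value. Chance gives about 1 such value in 20 groups that are independent. These 38 groups are not, since they are values of the same libraries, so whether 3 exceed chance was not tested. WT 5 was also above the cohort mean in 36 of 37 members. The groups of 3 in the AAV cohort are too small for this check.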

How the results depend on the processing

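No called log2 fold change changed sign under the alternatives run. The untreated median of 0.21, with no member called, lay between -0.21 and 0.38 over its alternatives, the lowest being the 4 libraries that hold Y-linked transcripts, a comparison chosen after seeing the data, as was the one within the 6 that lack them. Between KO and WT with GFP, 1 member was called. At an FDR of 0.1 there were 2, and DESeq2 called 2, where it called 1.58% of all genes. None was called with the GC content and length trend removed, with the replicate block, or in a fit of only these 2 groups. Leaving out single libraries gave 0 to 1. With PRDM16, 0 were called by edgeR, 7 by DESeq2 and 12 by limma-voom. Between KO with PRDM16 and WT with GFP, DESeq2 called 1. Over both viruses, 2 were called, against 13 at an FDR of 0.1 and 15 by either DESeq2 or limma-voom. Without single libraries it was 2 to 5, with 4 without WT + AAV-GFP 1 (1.64% of all genes) and 5 without KO + AAV-GFP 1 (3.02%). The share of all genes at an FDR of 0.1 was not computed, so the counts there are not a result about the members. With the GC content and length trend removed, the median log2 fold change of the virus effect was 0.28 in WT and 0.11 in KO, 0.19 over both and -0.064 for KO with PRDM16 against WT with GFP, where the medians of all genes were 0.11, 0.10, 0.11 and 0.03. The cause of these shifts was not tested. The replicate block, whose numbers do not mark pairs, changed no other FDR call among the 78 values computed with it. Every tested member had 470 counts or more in every library, and counting error was not compared with the spread for single members. The spread between 3 mice, and in the untreated cohort the libraries that went against their labels, limit the results.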
